A study of Mus musculus with 7 samples.

Results

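The genes described here are Usp18, Isg15, Uba7 and Herc6, which act in the conjugation cycle of the ubiquitin-like protein ISG15. They were taken as the rows of the expression table that name each gene, with the row of the highest mean where a gene has several. Each had 1 row, so that 4 of the 18939 features analysed are described, measured in prostates of mice given N-acetylcysteine (NAC) and in prostates of mice given vehicle. The genes had been chosen by their NAC against vehicle differences on these same arrays, so their own values are given as a description and were not tested.

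All mice were Nkx3.1-/- animals of the recombinant inbred B6/129 strain. This genotype is shared by both groups, and no wild-type array is among the data used here. The NAC group (4 mice, replicates 1 to 4) drank water with 5 mM NAC, a thiol antioxidant and glutathione precursor, for 13 weeks from weaning. The vehicle group (3 mice, replicates 1, 2 and 4) drank water without it for as long, and 1 further vehicle array was left out by the authors after quality control. Mice were 16 weeks old at collection and each array holds the RNA of 1 mouse. Littermates had been split between cages of each treatment, and cage and treatment cannot be told apart. The methods and the extraction protocol give the tissue as anterior prostate and a sample label gives whole prostate. Values are log2 intensities of Affymetrix Mouse Gene 1.0 ST probe sets, on which a difference of 1 is a doubling of signal.

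ISG15 is a small protein made of a pair of ubiquitin-like folds that is attached to lysines of other proteins after interferon exposure. UBA7 (also called UBE1L) is the E1 enzyme that activates it, UBE2L6 is the E2 enzyme that carries it, and HERC6 is the main E3 ligase that attaches it in the mouse, a role held by HERC5 in humans. USP18 (also called UBP43) is the protease that takes ISG15 off again, and apart from that activity it binds the receptor subunit IFNAR2 and dampens type I interferon signalling. Transcription of all of these genes is known to be raised by interferon, through response elements near their start sites that bind complexes of STAT and IRF proteins.

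The promoters of the members are shown because such elements are the route by which interferon is known to reach these genes. The sequences are those of RefSeq on GRCm38.p6, from 250 bases before to 50 bases after the start site, written on the strand of the gene. Capitals mark matches to GAAANNGAAA, the core of the interferon-stimulated response element, which was searched on both strands. Usp18 has no entry among the sequences used.
Isg15 (chr4:156200769-156201068, minus strand): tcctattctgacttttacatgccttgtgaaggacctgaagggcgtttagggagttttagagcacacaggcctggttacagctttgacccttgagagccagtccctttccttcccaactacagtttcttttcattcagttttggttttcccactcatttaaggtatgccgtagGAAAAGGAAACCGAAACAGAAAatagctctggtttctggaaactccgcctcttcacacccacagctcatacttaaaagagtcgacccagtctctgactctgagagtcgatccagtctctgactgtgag
Herc6 (chr6:57580742-57581041, plus strand): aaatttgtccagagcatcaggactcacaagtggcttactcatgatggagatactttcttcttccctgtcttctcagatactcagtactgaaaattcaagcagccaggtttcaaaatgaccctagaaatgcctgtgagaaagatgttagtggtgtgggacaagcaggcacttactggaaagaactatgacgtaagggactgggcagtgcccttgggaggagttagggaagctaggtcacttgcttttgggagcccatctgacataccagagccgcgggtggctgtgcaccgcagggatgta
Uba7 (chr9:107975317-107975616, plus strand): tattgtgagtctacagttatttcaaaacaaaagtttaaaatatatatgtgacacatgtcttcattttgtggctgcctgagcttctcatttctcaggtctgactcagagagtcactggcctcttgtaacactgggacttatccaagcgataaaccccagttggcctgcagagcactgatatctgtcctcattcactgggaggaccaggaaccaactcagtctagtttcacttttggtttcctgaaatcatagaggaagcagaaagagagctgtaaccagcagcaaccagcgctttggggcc

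The Isg15 window held 3 matches, each overlapping the next, from base -78 to -69, from -72 to -63 and from -66 to -57 relative to the start site. These letters were not found in the windows of Herc6 and Uba7. Of all 27025 genes with a promoter window, 1079 (3.99%) held at least 1 match, counted over any of their windows. The share was 18 of 30 (60.0%) among the antiviral interferon-induced genes listed for comparison and 2 of 40 (5.0%) among other ubiquitin-specific proteases.

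Across the cycle, the protease gene Usp18 and the ligase gene Herc6 were lower with NAC, and on both every NAC array lay below every vehicle array. The E1 gene Uba7 and the probe set of the modifier Isg15, a dim row, differed by less than 0.1 and their groups overlapped. All 4 differences were negative, where 50.5% of the 18939 features had a negative difference. With limma, 0 of 18939 features (0.0%) had an adjusted p under 0.05 in either direction, at an unadjusted p under 0.05 there were 479 lower and 357 higher, and the smallest adjusted p of any feature was 0.828. Over all features, 412 (2.18%) had every NAC array below every vehicle array and 245 (1.29%) had them all above. Of the members, 2 of 4 were of the first kind and 0 of the second, a count that the choice of the genes on this contrast bears on. In a whole tissue, fewer cells that express a gene and less of its RNA in each cell cannot be told apart.

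**Figure D1:**
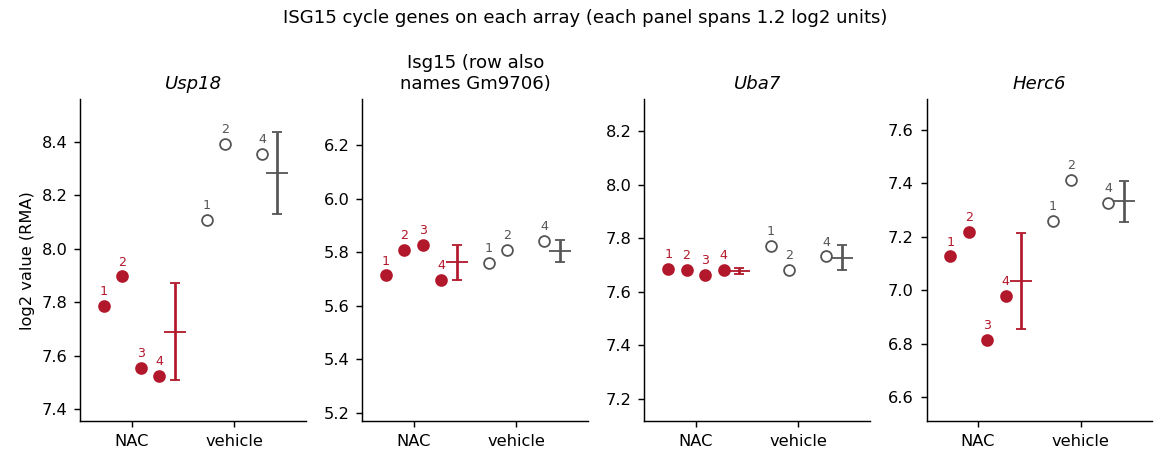
Log2 value (RMA) of Usp18, Isg15, Uba7 and Herc6 on each array, NAC (filled, n = 4) left and vehicle (open, n = 3) right, with the replicate number above each point and the mean with its SD beside each group. The Usp18 values lie between 7.52 and 7.90 with NAC and between 8.11 and 8.39 with vehicle, and the Herc6 groups are also apart, while those of Isg15 and Uba7 overlap.

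Usp18, the ISG15 protease, had log2 values of 7.79, 7.90, 7.55 and 7.52 on NAC replicates 1 to 4, and of 8.11, 8.39 and 8.35 on vehicle replicates 1, 2 and 4. All NAC arrays were below all vehicle arrays, with a gap of 0.21 between NAC replicate 2 and vehicle replicate 1. The mean was 7.69 ± 0.18 (SD, n = 4) with NAC and 8.28 ± 0.15 (SD, n = 3) with vehicle. The difference of -0.59 (standard error 0.11) is a signal 0.663-fold that of vehicle, and it is larger than the pooled SD within treatments, 0.17. Only 24 of the 18939 features had a more negative difference.

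Herc6, the ligase of the cycle in the mouse, was at 7.13, 7.22, 6.81 and 6.98 on NAC replicates 1 to 4, and at 7.26, 7.41 and 7.33 on vehicle replicates 1, 2 and 4. The groups were apart by 0.041 at their nearest arrays, NAC replicate 2 and vehicle replicate 1, which is less than the pooled SD within treatments of 0.15. The mean was 7.03 ± 0.18 (SD, n = 4) with NAC and 7.33 ± 0.076 (SD, n = 3) with vehicle. Its difference of -0.30 (standard error 0.098) corresponds to 0.814-fold, and 0.692% of features had a more negative one.

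Uba7, the activating enzyme, was at 7.69, 7.68, 7.66 and 7.68 on NAC replicates 1 to 4, and at 7.77, 7.68 and 7.73 on vehicle replicates 1, 2 and 4. The vehicle range reached into that of NAC, since NAC replicates 2 and 4 and vehicle replicate 2 hold the same value. Identical values on at least 3 arrays occur in 7568 of the features (39.96%) and limit what small differences can show. The mean was 7.68 ± 0.0096 (SD, n = 4) with NAC and 7.73 ± 0.046 (SD, n = 3) with vehicle, a difference of -0.050 (standard error 0.032).

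The row of Isg15 also names Gm9706, so that transcripts of these genes cannot be told apart and the value stands for both. It was at 5.71, 5.81, 5.83 and 5.70 on NAC replicates 1 to 4, and at 5.76, 5.81 and 5.84 on vehicle replicates 1, 2 and 4. The groups overlapped over most of their range. The mean was 5.76 ± 0.066 (SD, n = 4) with NAC and 5.80 ± 0.041 (SD, n = 3) with vehicle, and the difference of -0.041 (standard error 0.045) was smaller than its error. The row is dim, with a mean above that of only 25.4% of features, and its signal over background is unknown. A change in Isg15 RNA could therefore be missed here.

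The members also differed in how far they varied between mice of the same treatment. Relative to the mean of its treatment, Usp18 was at 0.095 and 0.21 on NAC replicates 1 and 2, and at -0.14 and -0.17 on NAC replicates 3 and 4. Herc6 was at 0.092 and 0.18 on NAC replicates 1 and 2, and at -0.22 and -0.055 on NAC replicates 3 and 4. Thus both genes were higher on the same pair of NAC arrays, and both were lowest on replicate 1 and highest on replicate 2 among the vehicle arrays. Uba7 stayed within 0.048 of its treatment means and the Isg15 row within 0.067, and neither split the NAC arrays in that way. The pooled SD within treatments was larger than that of 89.5% of features for Usp18 and of 83.8% for Herc6, and larger than that of 27.6% for the Isg15 row and of 7.60% for Uba7.

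Because protease and modifier sit at opposite ends of the cycle, their values were also set against each other on each array, each as the deviation from its own mean over the 7 arrays. Usp18 minus the Isg15 row was at -0.093, -0.075, -0.44 and -0.34 on NAC replicates 1 to 4, and at 0.18, 0.42 and 0.35 on vehicle replicates 1, 2 and 4. Usp18 was thus low relative to the Isg15 row on every NAC array. The Isg15 row spans only 0.14 over the 7 arrays, against 0.87 for Usp18. The subtraction therefore mostly repeats the values of Usp18, which was chosen on this contrast, and is no separate result. The same quantity averaged -0.24 ± 0.18 (SD, n = 4) with NAC and 0.32 ± 0.12 (SD, n = 3) with vehicle. For Usp18 minus Herc6 the means were nearer, -0.13 ± 0.082 (SD, n = 4) with NAC and 0.17 ± 0.094 (SD, n = 3) with vehicle, and the groups were again apart.

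**Figure D2:**
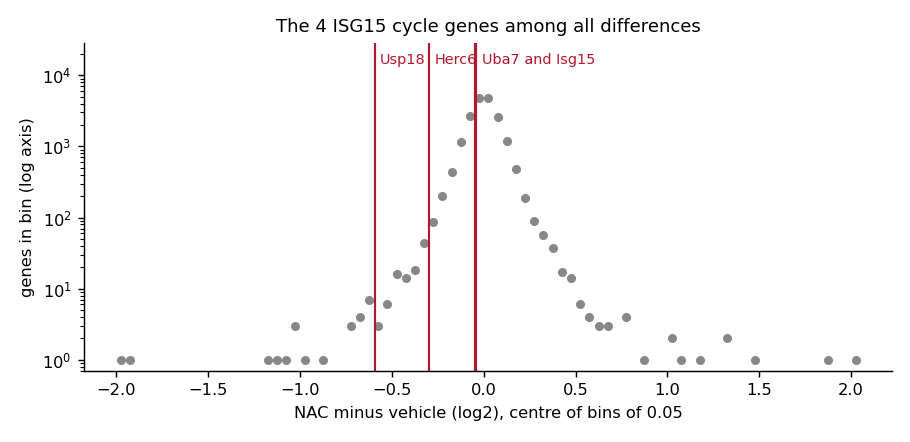
Number of features in bins of 0.05 of the NAC minus vehicle difference (log2), on a log axis, for all 18939 features, with red lines at the 4 ISG15 cycle genes. Usp18 at -0.59 and Herc6 at -0.30 lie in the lower tail, and Uba7 at -0.050 and the Isg15 row at -0.041 lie near the centre, where the median is -0.0003.

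The genes of other proteins known to work with these 4 had small differences. Of 10 partners, 6 were lower and 4 higher with NAC, with a median difference of -0.036, and 0 had an unadjusted p under 0.05. Ube2l6, the E2 enzyme, averaged 7.30 ± 0.11 (SD, n = 4) with NAC and 7.33 ± 0.031 (SD, n = 3) with vehicle. The difference of -0.038 (standard error 0.065) was within the spread of the arrays. Trim25, which can also act as an ISG15 ligase, was at 8.90 ± 0.089 (SD, n = 4) with NAC and 8.97 ± 0.049 (SD, n = 3) with vehicle. Arih1, a ligase of the RING-between-RING type for which ISG15 ligation has been described in human cells, was 0.035 (standard error 0.058) higher with NAC. The alternative E2 enzymes Ube2e1 and Ube2e2 had differences of -0.034 and 0.053.

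Partners outside conjugation gave a similar picture. Ifnar2, the receptor subunit that USP18 binds, was the partner in which all NAC arrays lay below all vehicle arrays, with 10.38 ± 0.048 (SD, n = 4) with NAC and 10.46 ± 0.019 (SD, n = 3) with vehicle. That difference is -0.082 (standard error 0.036, adjusted p = 0.828 with limma). Stat2, which recruits USP18 to the receptor, had a difference of -0.044 (standard error 0.043). Skp2, the ubiquitin ligase subunit that targets USP18 in human cells, was 0.051 (standard error 0.038) higher with NAC. Itgal and Itgb2, the subunits of the integrin LFA-1 that binds extracellular ISG15, had differences of -0.091 (standard error 0.050) and 0.16 (standard error 0.17), and the groups overlapped for both.

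Signalling genes upstream of the cycle were balanced. Of 24 receptors, kinases, STAT and IRF factors and their inhibitors, 12 were lower and 12 higher with NAC, with a median difference of 0.0017, a sign that turned under 8 alternatives. Irf7, the interferon regulatory factor that is itself induced by interferon, was the exception in size, at 8.12, 8.02, 7.78 and 8.18 on NAC replicates 1 to 4 and at 8.25, 8.47 and 8.62 on vehicle replicates 1, 2 and 4. All NAC arrays lay below all vehicle arrays, and the difference was -0.42 (standard error 0.12, adjusted p = 0.828 with limma). Irf9, the DNA-binding subunit of the complex that type I interferon activates, was at -0.12 (standard error 0.057), and Irf2 at -0.081 (standard error 0.040). The receptor subunit Ifnar1 and the kinases Jak1 and Tyk2 differed by -0.044, 0.025 and -0.21, and their groups overlapped.

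Of the 19 measured genes whose proteins have been reported to carry ISG15, 12 were lower and 7 higher, with a median difference of -0.025. With limma, 4 had an unadjusted p under 0.05, all lower with NAC, against 479 lower and 357 higher of all 18939 features. At an adjusted p under 0.05 there were 0. These 4 were Ifit1 at -0.69 (standard error 0.17), Ifit3 at -0.64 (standard error 0.22), Ddx58, the RNA sensor RIG-I, at -0.30 (standard error 0.10), and Eif2ak2, the kinase PKR, at -0.25 (standard error 0.10). All are interferon-induced antiviral genes that are counted again in the antiviral list below, as is Mx1, which was at -0.055 (standard error 0.058). The other 15 targets, Mx1 among them, were 8 lower and 7 higher and ran from -0.071 for Trp63, the basal cell factor p63, to 0.12 for Becn1, an autophagy gene. The values are those of the RNA, and the conjugates themselves were not measured.

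Antiviral genes and the DTX3L and PARP genes share part of this pattern. Of 40 antiviral genes, 33 were lower and 7 higher with NAC, with a median difference of -0.13. In 8 of the 40 every NAC array lay below every vehicle array, against 2.18% of all features. The mean deviation of the 40 ran from -0.096 to -0.0082 on NAC arrays. It was -0.055, 0.15 and 0.17 on vehicle replicates 1, 2 and 4, so the groups overlapped and vehicle replicate 1 lay among the NAC arrays. Dtx3l, a ubiquitin ligase that pairs with PARP9, was at -0.35 (standard error 0.084), and all 6 genes of that group had a negative difference, with a median of -0.21. Of these 6, only Dtx3l had every NAC array below every vehicle array. Their mean deviation was 0.042 on NAC replicate 1 and 0.032 on vehicle replicate 2, so the groups overlapped. Divided by promoter match, the antiviral genes had a median difference of -0.13 in the 18 with the motif and -0.15 in the 12 without it. Over the other measured genes, it was -0.0009 in the 564 with the motif and -0.0016 in the 14281 without it.

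The genes nearest to Usp18 were found by the root mean square difference between deviations from the 7-array mean, a description over 7 arrays that takes in the treatment difference. In order, they were Ifit1 at 0.12, Srpx at 0.12, Oasl2 at 0.14, Irgm1 at 0.15, Rtp4 at 0.15, Zfp455 at 0.15, Spink8 at 0.16 and Zfp975 at 0.16. Ifit1, Oasl2, Irgm1 and Rtp4 are interferon-induced, while Srpx is a sushi-domain protein and Spink8 a serine protease inhibitor of the Kazal type. Of the 6 with a promoter window, Ifit1 and Irgm1 held the motif. Herc6 came in place 11, with 0.16, whereas the Isg15 row came in place 3589 and Uba7 in place 4383, with 0.30 and 0.31. The nearness was not mutual in rank: ordered by distance from Herc6, Usp18 came in place 2186, Uba7 in place 3778 and the Isg15 row in place 5198. The smallest distances to the Isg15 row, 0.018 to 0.025, were those of Copb2, Zfp248, Cript, Commd1, Rabgap1l, Copb1, Ociad1 and Dym, none of which is a listed interferon gene. Deviations were not scaled to each gene's spread, and the Isg15 row spans only 0.14. Genes with large differences could therefore not come near it, whatever their pattern.

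**Figure D3:**
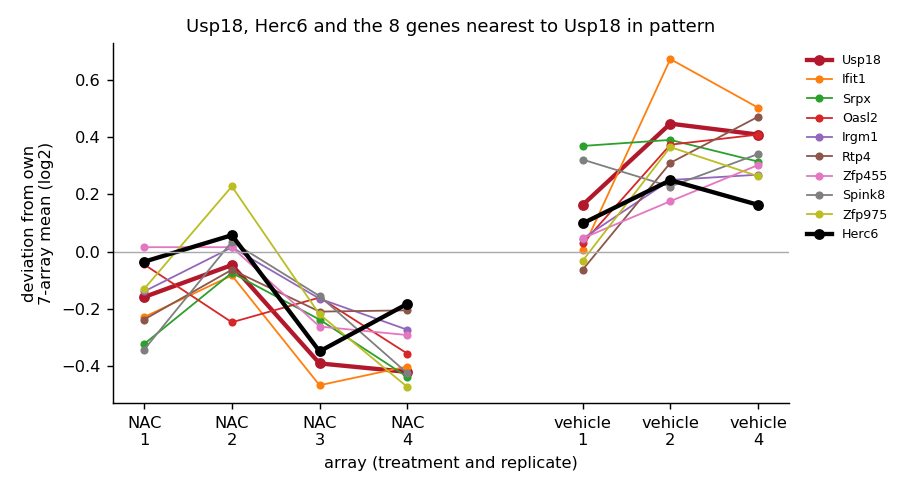
Deviation of Usp18 (thick red), Herc6 (thick black) and the 8 genes nearest to Usp18 from their own 7-array mean (log2), for NAC replicates 1 to 4 on the left and vehicle replicates 1, 2 and 4 on the right. Usp18 lies below 0 on every NAC array and above 0 on every vehicle array, and Herc6 does so except for 0.057 on NAC replicate 2.

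Usp18 was then compared with the enzymes of its family. In 51 other ubiquitin-specific proteases (Cyld included), which mostly cleave ubiquitin, 31 were lower and 20 higher with NAC. Their median difference was -0.022, which turned to 0.0005 when the arrays were quantile normalized again. The differences ran from -0.16 to 0.34, and the value of Usp18, -0.59, on which it was chosen, is outside that range. The lowest was Usp11, at 6.84, 6.67, 6.84 and 6.84 on NAC replicates 1 to 4 and at 7.03, 6.88 and 6.97 on vehicle replicates 1, 2 and 4. Usp46 and Usp8 followed among those with an unadjusted p under 0.05, at -0.16 (standard error 0.064) and -0.14 (standard error 0.056). The highest was Usp17ld, one of several near-identical copies whose probes may be shared. Usp47, a protease that acts on DNA polymerase beta, was at -0.073 (standard error 0.035).

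Relatives of Herc6, which was also chosen on this contrast, were likewise nearer to 0. Herc1, Herc2 and Herc3 had differences of -0.035, -0.021 and 0.032, against -0.30 for Herc6, and their median turned its sign when the arrays were quantile normalized again. Among 6 other E1 enzymes the median was -0.056, with 4 lower and 2 higher. Uba6, which activates both ubiquitin and FAT10, was lowest, at 8.58, 8.57, 8.41 and 8.20 on NAC replicates 1 to 4 and at 8.70, 8.56 and 8.67 on vehicle replicates 1, 2 and 4. The groups overlapped, and the difference was -0.21 (standard error 0.099). Nae1, an E1 subunit for NEDD8, was at -0.11 (standard error 0.082), and Mocs3 and Atg7, E1 enzymes for URM1 and for the ATG8 and ATG12 proteins, were at 0.049 and 0.048.

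Parallel cycles of other ubiquitin-like proteins had small shifts. In the NEDD8 cycle, 11 of 12 genes were lower and the median difference was -0.073. The NEDD8 protease Senp8 was lowest, with 6.02 ± 0.21 (SD, n = 4) with NAC and 6.30 ± 0.30 (SD, n = 3) with vehicle. In the SUMO cycle, 11 of 14 genes were lower, with a median of -0.047. The proteases Senp7 and Senp3 were at -0.13 (standard error 0.060) and 0.10 (standard error 0.053). In the UFM1 cycle, 5 of 7 genes were higher, with a median of 0.017. Its ligase Ufl1 was at -0.20 (standard error 0.084) and its E2 enzyme Ufc1 at 0.15 (standard error 0.069). In the ATG8 and ATG12 cycle, 11 of 15 genes were lower, with a median of -0.018, which was 0.011 after quantile normalization again. The ATG8 proteases Atg4c and Atg4b were lower on each NAC array than on any vehicle array, at -0.18 (standard error 0.054) and -0.12 (standard error 0.050). Ubd, the gene of FAT10, which like ISG15 is made of a pair of ubiquitin-like folds, was at 0.090 (standard error 0.074).

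**Figure D4:**
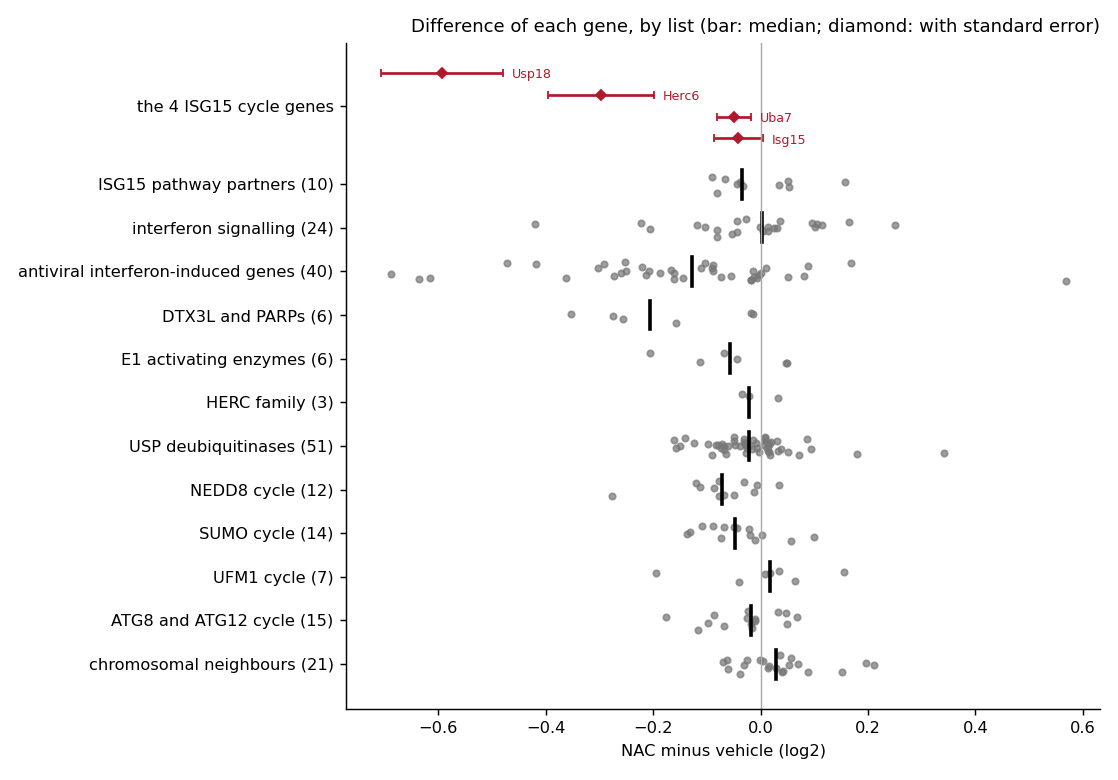
NAC minus vehicle difference (log2) of each gene (grey points) by list, with the list's median (black bar) and the number of genes measured, and above them the ISG15 cycle genes (red diamonds) with their standard errors. Usp18 at -0.59 lies outside the range of the other ubiquitin-specific proteases, -0.16 to 0.34, and of the partners, -0.091 to 0.16. Usp18 was chosen on this contrast, so its place is a description only.

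Genes next to the members on the chromosome were compared as well. Over 21 neighbours, the median was 0.029, with 14 higher and 7 lower with NAC and a range from -0.071 to 0.21. On one side of Usp18 lie the transporters Slc6a13 and Slc6a12 and the ARF exchange factor Iqsec3, which had differences of 0.20 (standard error 0.079), 0.15 (standard error 0.052) and 0.21 (standard error 0.072), all opposite in sign to that of Usp18. On the other side, Tuba8, Pex26 and Mical3 were at 0.056, -0.061 and 0.040. The 6 neighbours of Herc6 ran from -0.038 to 0.036, which does not reach the -0.30 on which Herc6 was chosen. The 6 of Uba7 ran from -0.071 to 0.088 and the 3 of Isg15 from -0.032 to 0.042, and 2 neighbours of each had a negative difference, as these members had.

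Markers of cell types that could carry interferon genes were compared on the same arrays. Of 12 macrophage markers, 11 were higher with NAC, and their mean deviation ran from -0.024 to 0.21 on NAC arrays and from -0.14 to -0.051 on vehicle arrays, without overlap and opposite in sign to Usp18 and Herc6. The 0.21 was that of NAC replicate 1. Singly, 1 of the 12 had all NAC arrays above all vehicle arrays, and 0 had an unadjusted p under 0.05 with limma. Of 7 neutrophil markers, 6 were higher, with a mean deviation from -0.11 to 0.51 on NAC arrays and from -0.26 to 0.19 on vehicle arrays. It was highest on replicate 2 in both treatments, as were Usp18 and Herc6 within treatments, and its part in their values was not tested. Of 11 T and NK cell markers, 9 were lower, with a mean deviation from -0.041 to 0.0013 on NAC arrays and from -0.0044 to 0.097 on vehicle arrays. Conventional and plasmacytoid dendritic cell markers split 5 higher and 4 lower, and 4 higher and 4 lower, with medians of 0.0033 and 0.0014. The median of 7 B and plasma cell markers was 0.091, but the 4 higher were those of B cells and the 3 lower those of plasma cells. The B cell factor Pax5 had all NAC arrays above all vehicle arrays. The conventional dendritic cell gene Clec9a was at -0.21 (standard error 0.060) and Jchain, the joining chain of plasma cells, at -0.48 (standard error 0.16), both with all NAC arrays below all vehicle arrays. Their part in the values of the members was not tested.

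Prostate identity was clear on every array, with the luminal secretory gene Pbsn between 12.65 and 12.95 on NAC arrays and between 12.63 and 12.75 on vehicle arrays. The 11 luminal markers had a median difference of 0.0085, the 4 basal markers 0.084, the 12 of smooth muscle and fibroblasts -0.028 and the 6 of endothelium 0.076. NAC replicate 3 stood apart in lung genes. The club cell gene Scgb1a1 was at 9.29 there and at most 4.03 on the other arrays, and the mean deviation of 10 lung markers was 1.61, against -0.31 to -0.21 elsewhere. Without NAC replicate 3, the difference was -0.55 for Usp18, -0.22 for Herc6, -0.046 for Uba7 and -0.064 for the Isg15 row.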

How the data were processed

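RNA of 7 prostates, 4 with NAC and 3 with vehicle, was measured on 1 array each. The deposited values are log2 RMA expression, 1 value per probe set: the authors applied a quantile normalization and the RMA background model, and fitted the perfect-match probes of each set by median polish. Tools named in the submitters' processing notes are affy, RMA and limma, with no version given. Values entered the fit as deposited. RMA values carry no detection call, so the signal over background is unknown here, and precision is limited by how few arrays there are.

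Of 20696 probe sets, 18950 name 1 gene, 678 several and 1068 none in the annotation used, and 18910 Entrez identifiers were found in the RefSeq gene table of GRCm38.p6, which was used for names and neighbours. The probe set with the highest mean stood for each of 18938 genes, and the row of Isg15, which names 2 genes, was added. The table has 0 value columns without a sample.

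NAC minus vehicle was fitted with limma 3.58.1 (R 4.3.3), with lmFit, eBayes and a two-sided p adjusted by Benjamini-Hochberg over all 18939 features at a threshold of 0.05 and without covariates, and checked on simulated data. Nothing in the labels names a batch. The members and the 26 gene lists were chosen with earlier results of these data known, and lists are described by counts, medians and ranges, with no test of a list. The genes of the ubiquitin list itself are not analysed here. Genes named are the members, up to 4 genes per list with the smallest unadjusted p, those whose role in the cycle is explained, the 8 nearest in pattern to Usp18 and to Isg15, and the extremes of marker lists; Ifnar1, Jak1, Tyk2, Mx1, Becn1, Trp63 and Pax5 were chosen after their values were seen. Predicted genes, Riken clones, receptor families and immunoglobulin segments were passed over in the nearest genes.

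Each value was recomputed with each array left out, with the replicate number as a block, with array weights, with a trended and robust variance, after centring arrays on their medians, after a further quantile normalization, without features below percentile 40 of mean signal, with several probe sets of a gene replaced by their median, and with every probe set kept.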

Additional observations from a re-analysis of the deposited data

Results flagged for a closer look

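The 4 NAC arrays were checked for 106 genes, which are those named in the text and the others that the naming rule gives, and 9 genes had an array far from the other arrays, measured as its gap to the nearest array over the whole range. About 1 in 20 such checks is expected to be picked out by chance where values are normally distributed and hold no ties. That rate does not apply here, since many rows hold identical values and many of the genes were named for their values on these arrays. This ratio was 1 for Skp2 (NAC replicate 3 at 7.25, the other NAC arrays at 7.19), for Usp11 (replicate 2 at 6.67, the others at 6.84), for Pex26 (replicate 3 at 7.67, the others at 7.73) and for Camp (replicate 2 at 6.10, the others at 6.12), where the other arrays hold identical values. It was 0.974 for Trim25 (replicate 3 at 8.76, the others from 8.94 to 8.95), 0.924 for Dcun1d2, a cofactor of NEDD8 ligation (replicate 4 at 8.04, the others from 8.19 to 8.20), 0.934 for Scgb1a1 (replicate 3 at 9.29), 0.976 for Ube2l6 (replicate 4 at 7.13, the others from 7.35 to 7.36) and 0.949 for Itgb2 (replicate 1 at 7.44, the others from 6.78 to 6.81). For Usp18, Isg15, Uba7 and Herc6 the ratio did not pass the critical value.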

How the results depend on the processing

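All 4 members kept the sign of their difference under every alternative that gave a value. For Usp18 and Herc6, leaving out, weighting or blocking arrays could not turn that sign, since every NAC array lay below every vehicle array. The trended and robust variance and the median over probe sets leave the difference of each member unchanged. These settings are therefore no check of the sign. With each array left out in turn, the difference ran from -0.68 to -0.54 for Usp18, from -0.36 to -0.22 for Herc6, from -0.074 to -0.028 for Uba7 and from -0.064 to -0.020 for the Isg15 row, so that the last 2 differences moved by more than 1.5 times: Uba7 was at -0.028 without vehicle replicate 1, and the Isg15 row at -0.025, -0.020 and -0.022 without NAC replicate 1, NAC replicate 4 and vehicle replicate 4, and at -0.064 and -0.063 without NAC replicate 3 and vehicle replicate 1. Quantile normalization again gave -0.028 for Uba7 and -0.067 for the Isg15 row. The Isg15 row was removed with the dim genes, so that it has 13 alternatives and not 14. The number of features called was 0 with every alternative but 1, and 0 to 1 with an array left out: without NAC replicate 4, Crip1, a LIM-domain protein, was called (-1.15, standard error 0.055, adjusted p = 0.0325 with limma). Features with an unadjusted p under 0.05 numbered 803 lower and 454 higher without NAC replicate 2, and 414 lower and 140 higher among the 11363 left when dim genes were removed. Samples with the same replicate number did not deviate together in every pair, with correlations across features of 0.21, 0.29 and -0.067, so the numbers are not taken as pairs. With the number as a block, to which NAC replicate 3 adds nothing, 0 features were called, and the difference was -0.55 for Usp18, -0.22 for Herc6, -0.064 for the Isg15 row and -0.046 for Uba7. The list median turned its sign under 8 alternatives for interferon signalling, 2 each for the HERC family and the reported targets, and 1 each for the UFM1 cycle, the ATG8 and ATG12 cycle, the ubiquitin-specific proteases and the neighbours.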
